A study of Mus musculus with 19 samples.

Results

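The 5-hydroxymethylcytosine (5hmC) landscape of knockout (KO) cells at day 10 (D10) was set against that of wild-type (WT) cells at day 2 (D2), to ask whether the knockout cells sat in the WT intermediate state and where they departed from it. KO1 D10 and KO2 D10 had 1 library each, and WT D2 had 3, replicates A, B and C. They were chosen by their titles, 5 of the 19 samples of the series and 5 of its 18 peak lists. All were pre-iPSCs derived from mouse embryonic fibroblasts (MEFs), grown in serum and leukaemia inhibitory factor and treated with ascorbic acid at 50 µg/mL and 2i, the inhibitors CHIR-99021 and PD-0325901. Which gene was deleted, and whether it is the same in both lines, is not in the labels, nor is how the lines were made or whether either is 1 clone. Each line has 1 library per day. Nothing in the labels states that the WT replicates came from separate cultures, so a p-value here reflects the spread of these samples alone, and that spread may be technical. The other WT and KO libraries (D0, D2 and D10) were read for position in the time course, and the mouse embryonic stem cell (mESC) lists only for how many regions they held.

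TET enzymes make 5hmC by oxidising 5-methylcytosine, and the base can persist as a mark or be carried on towards unmethylated cytosine. Ascorbic acid is a cofactor that raises TET activity. Pre-iPSCs are cells stalled part of the way from fibroblast to pluripotent stem cell, and 2i blocks GSK3 and MEK, which favours the naive pluripotent state. 5hmC is found mainly over active enhancers and gene bodies, so the places that carry it differ between cell states. In a bulk DNA sample, a site marked in fewer cells and a site marked less in each cell cannot be told apart.

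The 5 lists held 620836 peaks on chromosomes 1 to 19, of 1601520 deposited in all lists. Chromosome 5 is described apart, since its share of peaks set the lines apart on every day, and values below are without it unless it is named. KO1 D10 had 100084 peaks and KO2 D10 had 106314, against 150364, 123385 and 99771 in WT D2 A, B and C. The peaks covered 45.9 Mb in KO1 D10 and 41.3 Mb in KO2 D10, against 60.3, 53.3 and 41.1 Mb in WT D2 A, B and C. Both KO libraries lay within the WT D2 range. Mean log2 peak number differed by -0.25, KO D10 minus WT D2 (two-sided exact permutation test, p = 0.4, where 2 libraries against 3 cannot go below 0.1). Sequencing depth relative to the shared input, read from the steps of the fold values, was 1.47 in KO1 D10 and 1.16 in KO2 D10, against 1.61, 1.35 and 1.24 in WT D2 A, B and C. KO2 D10 was thus the shallowest of the 5. The median peak was 377 bp wide in KO1 D10 and 328 bp in KO2 D10, against 328, 355 and 342 bp in WT D2.

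KO D10 lists overlapped WT D2 lists more than those of any other WT day. Overlap is given here as shared bp in percent of all bp that the pair of lists covers. KO1 D10 shared 39.7, 44.5 and 42.5% with WT D2 A, B and C, against 29.8, 33.7 and 22.2% with the WT D0 lists and 12.0, 10.3 and 6.87% with the WT D10 lists. KO2 D10 shared 32.4, 32.0 and 31.4% with WT D2 A, B and C. Its overlap was 12.0, 14.2 and 10.4% with WT D0 and 18.4, 17.2 and 12.1% with WT D10. For each line, all 3 WT D2 values lay above all 6 values of the other WT days. The lines differed in which day came next: the WT D0 lists for KO1 D10 and, on average, the WT D10 lists for KO2 D10. Each KO D10 list also overlapped the D2 list of its own line more than the D0 list of that line. The values were 43.7% at D2 and 29.8% at D0 for KO1, and 36.4 and 13.1% for KO2. For KO2 D10, its own D2 list and the KO1 D2 list (33.1%) were above all 3 WT D2 lists. For KO1 D10, its own D2 list was above WT D2 A and C and below B, and the KO2 D2 list was at 33.7%.

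**Figure D1:**
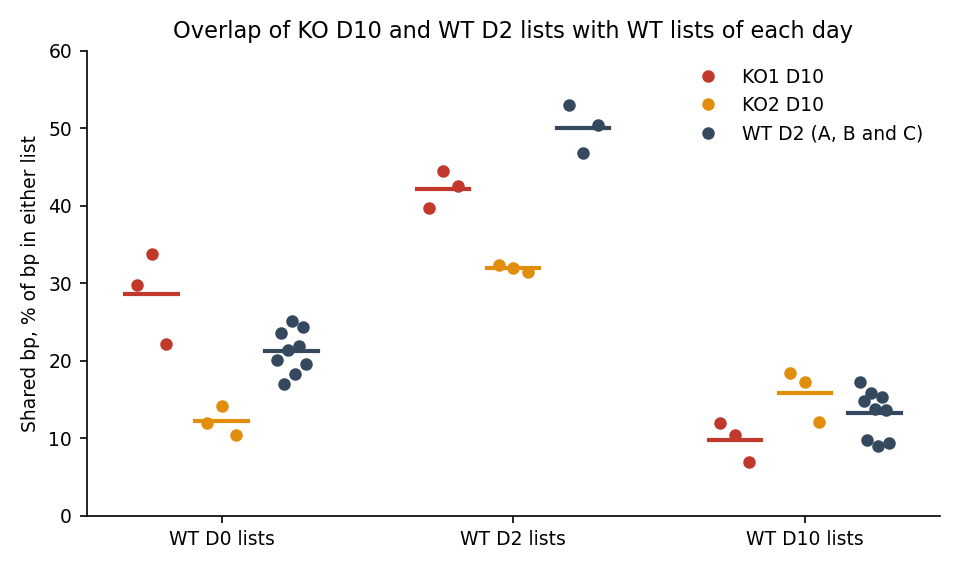
Overlap of each KO D10 list, and of the WT D2 lists, with the WT lists of D0, D2 and D10 (vertical axis, shared bp as % of bp in either list). Points are pairs of lists and lines are means; both KO D10 libraries are highest with WT D2, at means of 42.2% (KO1) and 31.9% (KO2), below the 50.1% of WT D2 lists among themselves.

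KO D10 was still farther from WT D2 than WT D2 replicates were from each other. The mean overlap with the WT D2 lists was 42.2 ± 2.42% for KO1 D10 and 31.9 ± 0.4997% for KO2 D10. Among the WT D2 lists it was 50.1 ± 3.12% (SD, n = 3 pairs each). The 3 pairs of a KO line share its single library, so that SD is a spread over WT D2 lists and not of the line. All 6 KO values, from 31.4 to 44.5%, were below all 3 WT D2 pairs, which lay between 46.8 and 53.0%. The mean KO minus WT difference was -12.99 percentage points (two-sided exact permutation test, p = 0.1, the smallest that the design allows). It was -7.85 points for KO1 D10 and -18.1 points for KO2 D10, with no test for a single library. KO1 D10 and KO2 D10 overlapped each other by 24.97%, less than either overlapped any WT D2 list.

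Most KO D10 peaks fell on places that also carried 5hmC in WT D2. Of KO1 D10 peaks, 84.6% overlapped a peak of at least 1 WT D2 list by 1 bp or more, as did 74.0% of KO2 D10 peaks. Peaks present in all 3 WT D2 lists made up 55.7% of KO1 D10 peaks and 45.4% of KO2 D10 peaks. Those in no WT D2 list made up 15.4% of the KO1 D10 list and 25.97% of the KO2 D10 list. KO and WT libraries were also each set against 2 WT D2 lists at a time. For KO this was the mean over the 3 pairs of lists, and for each WT D2 library the other 2 lists. The shares were 80.6% for KO1 D10 and 69.5% for KO2 D10, against 74.3, 86.3 and 92.0% for WT D2 A, B and C. WT D2 C, the shortest WT D2 list, faced the 2 longest, A and B. WT D2 A, the longest, faced the 2 shortest, so these shares are not fully alike. KO1 D10 lay above WT D2 A and below B and C, and KO2 D10 lay below all 3. In the other direction, a KO1 D10 peak was found at 51.0, 60.2 and 66.2% of the peaks of WT D2 A, B and C, and a KO2 D10 peak at 46.7, 50.7 and 55.9%. WT D2 A, the longest and deepest list, gave the lowest share for both lines.

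The shares depended on the strength of the peak. Within each list, peaks were ranked by the authors' -log10 p and split into deciles. Of the strongest decile of WT D2 peaks, 96.3% had a KO1 D10 peak (94.4 to 97.6% over the 3 lists) and 84.4% had a KO2 D10 peak (83.5 to 85.0%). In decile 5 the shares were 57.2% for KO1 D10 and 48.0% for KO2 D10. In the weakest decile they were 33.6 and 34.4%, and the ranges over the lists overlapped. The gap between the lines was thus wide in the stronger deciles and closed in the weakest. The same order was seen from the KO side: 98.8% of the strongest decile of KO1 D10 peaks and 94.2% of the strongest decile of KO2 D10 peaks were in at least 1 WT D2 list, against 74.0 and 60.2% of the weakest decile. Peaks in all 3 WT D2 lists had a median width of 451 bp in KO1 D10 and 388 bp in KO2 D10, while those in none measured 301 and 281 bp. Of the peaks in no WT D2 list, 0.792% in KO1 D10 and 2.22% in KO2 D10 fell in the strongest decile of their list. Depth and peak width differed between the libraries, and their part in these shares was not tested.

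**Figure D2:**
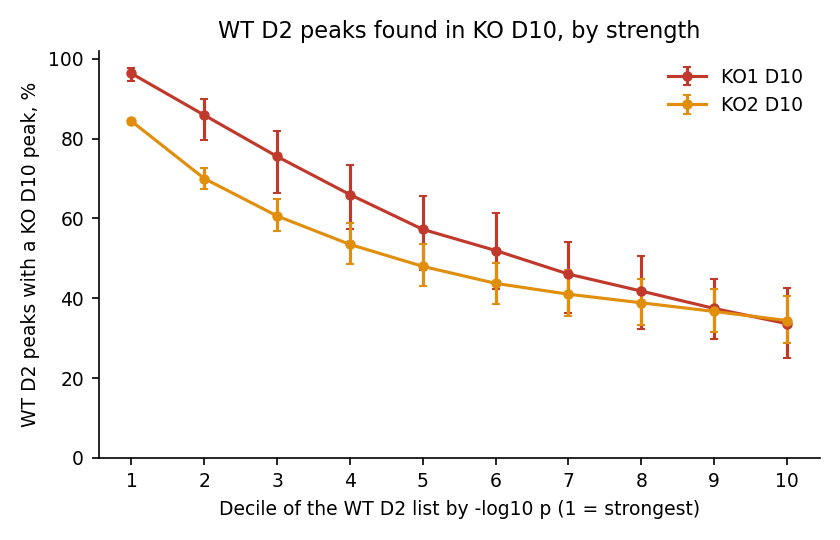
Share of WT D2 peaks that overlap a KO D10 peak (vertical axis, %) by decile of the WT D2 list (horizontal axis, 1 is the strongest by -log10 p). Points are means over the 3 WT D2 lists and bars run from the lowest to the highest list; KO1 D10 is above KO2 D10 in the strongest decile (96.3 and 84.4%) and the lines meet in the weakest (33.6 and 34.4%).

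Merging the peaks of the 5 lists gave 214026 regions, and few of these separated both knockouts from all WT D2 replicates. A peak in all 5 libraries was found in 37019 regions (17.3%), which covered 30.6 of the 100.4 Mb and had a median width of 708 bp. Both KO D10 libraries and no WT D2 library had a peak in 1554 regions (0.726%), called KO only. All 3 WT D2 libraries and no KO D10 library had a peak in 7305 regions (3.41%), called WT only. Peaks that set 1 line apart were more numerous: 13766 regions (6.43%) were found in KO1 D10 alone and 25855 (12.1%) in KO2 D10 alone. Of the 41175 regions with a KO peak and no WT D2 peak, 3.77% were in both lines, 33.4% in KO1 D10 alone and 62.8% in KO2 D10 alone. These counts move with the number of lists asked for. Without KO1 the KO only class held 27613 regions and without KO2 15411, without WT D2 A 2854 and without WT D2 B 2406. The WT only class held 24907 without KO1, 16545 without KO2, 11529 without WT D2 B and 17341 without WT D2 C.

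The regions marked in every WT D2 replicate form a core of 70652, and the lines kept different parts of it. KO1 D10 had a peak in 76.7% of the core and KO2 D10 in 65.4%. Both lines had one in 52.4%, KO1 D10 without KO2 D10 in 24.3%, KO2 D10 without KO1 D10 in 12.97%, and neither line in 10.3%. The libraries outside the 5 were then read in these regions, a reading that the choice of regions did not use.

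The core regions that only 1 line kept had a different WT history in each line. Those with a KO1 D10 and no KO2 D10 peak, 17164 regions (8.02% of all merged regions), were marked in WT D0 A, B and C in 58.6, 67.9 and 46.5% of cases and in WT D10 A, B and C in 18.4, 14.1 and 8.95%. Those with a KO2 D10 and no KO1 D10 peak, 9164 regions (4.28%), were marked in 15.1, 23.8 and 16.8% of cases in WT D0 and in 41.1, 37.4 and 27.1% in WT D10. In these readings the WT D0 and D10 libraries did not overlap, and their order was opposite for the lines. Regions that all 5 lists shared held both, with a mean of 58.3 ± 10.1% in WT D0 and 38.01 ± 9.04% in WT D10 (SD, n = 3 each), against 28.4 ± 7.33% and 18.97 ± 4.66% over all regions. The 95% Wilson interval of the first share, 58.6%, ran from 57.9 to 59.4%; such intervals cover counting error only, and the spread between libraries was wider.

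Regions found in a single line alone had the same opposite order of WT D0 and WT D10. KO1 D10 alone regions held a peak in 40.3, 53.1 and 18.3% of cases in WT D0 A, B and C, and in 2.79, 2.27 and 1.28% in WT D10. KO2 D10 alone regions held one in 3.396, 7.07 and 1.48% of cases in WT D0 and in 16.1, 16.1 and 11.4% in WT D10. Over all merged regions the shares were 28.4, 35.7 and 21.1% in WT D0 and 22.9, 20.2 and 13.8% in WT D10. KO2 D10 alone regions were thus marked less often than all regions in every WT D0 and D10 list. KO1 D10 alone regions were marked more often than all regions in WT D0 A and B only. The D0 lists of both knockouts marked KO1 D10 alone regions more often: 33.8% had a KO1 D0 peak and 31.4% a KO2 D0 peak. Of KO2 D10 alone regions, 1.57% had a KO1 D0 peak and 10.5% a KO2 D0 peak. No other list of the series had a peak in 20.7% of KO1 D10 alone regions and in 38.5% of KO2 D10 alone regions, against 18.5% of all regions.

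The small classes that separated both knockouts from WT D2 were not strongly tied to either WT end. KO only regions were marked in 31.7, 43.8 and 12.1% of cases in WT D0 A, B and C and in 14.0, 13.4 and 8.69% in WT D10. They were marked in KO1 D2 in 44.8% and in KO2 D2 in 63.0%, against 51.5 and 41.4% of all regions, and 7.21% had a peak in no other list. WT only regions were marked in 18.4, 24.6 and 19.5% of cases in WT D0 and in 20.8, 17.4 and 10.8% in WT D10. KO1 D2 held a peak in 57.5% of the WT only regions and KO2 D2 in 25.1%, against the same 51.5 and 41.4% of all regions. The mESC lists of 0, 12 and 72 h, from stem cells with no replicates, held a peak in 4.05, 5.02 and 4.57% of KO only regions. They held one in 9.69, 7.65 and 1.90% of WT only regions, against 8.72, 8.57 and 3.59% of all regions.

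The longest of these regions show what the classes hold; positions are on mm9, and no gene annotation or sequence of that build was used here. The longest KO only region, chr4:152931959-152933452, was covered over 1494 bp in KO1 D10 and 502 bp in KO2 D10, and over 0 bp in all 3 WT D2 libraries. Both lines also had a peak there at D0 and D2, and of the 6 WT libraries of D0 and D10 only WT D0 B did. Next came chr8:49224466-49225671, covered over 422 bp in KO1 D10 and 1046 bp in KO2 D10. It differed from the first in that KO1 had no peak there at D0 or D2, and 2 WT D0 and 3 WT D10 libraries did. The others were chr8:80757132-80758296, chr10:117082022-117083182 and chr1:136699531-136700651, each with a peak in KO2 D0 and KO2 D2. The longest WT only region, chr7:125633220-125634888, was covered over 1229, 1481 and 397 bp in WT D2 A, B and C and had no peak in any other list of the series. The others were chr3:121258346-121259799, chr3:34559999-34561423, chr10:60279028-60280446 and chr4:62403077-62404487. KO1 D2 had a peak in each of these 4, and only chr4:62403077-62404487 had a peak in any WT D0 or D10 library.

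The time course was then asked directly by sorting regions by the WT days on which they were marked. A region counted as marked on a day when both lists of a pair of WT letters had a peak, and the third letter, held out, was read beside the knockouts. Of regions marked at D0 and D2, 90.6% had a peak in KO1 D10 and 54.3% in KO2 D10, against 90.4 ± 6.51% in the held-out WT D2 list (SD over 3 held-out letters). Of regions marked at D2 and D10, 53.7% had a peak in KO1 D10 and 80.1% in KO2 D10, against 84.0 ± 12.4% in the held-out WT D2 list. KO1 D10 thus lay at the WT D2 level for the places that D2 shares with D0, and KO2 D10 within the WT D2 spread for those it shares with D10. Each line lay below every held-out WT D2 list in the other class. Regions marked at D2 only had a peak in 49.3% of cases in KO1 D10 and 47.9% in KO2 D10, against 74.6 ± 14.6% in the held-out WT D2 list, with both lines below the lowest of the 3 held-out lists (58.2%).

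The places that WT cells marked on 1 of the outer days alone also split the lines. Of regions marked at D0 only, 27.7% had a peak in KO1 D10 and 5.24% in KO2 D10, against 18.5, 12.5 and 5.11% in WT D2 A, B and C. Of those marked at D10 only, 1.72% had a peak in KO1 D10 and 17.0% in KO2 D10, against 17.5, 5.23 and 2.86% in WT D2 A, B and C. The held-out WT D10 list had a peak in 68.3 ± 13.2% of the D10 only regions, so neither line approached WT D10 in them. Regions marked on all 3 days were near complete in each, at 95.6% in KO1 D10 and 88.5% in KO2 D10, against 97.8 ± 2.46% in the held-out WT D2 list. On the knockouts' own day 2, the D0 and D2 class stood at 86.2% in KO1 D2 and 72.1% in KO2 D2, and the D2 and D10 class at 83.9 and 64.4%. Between its D2 and D10 libraries, the D2 and D10 class was thus 53.7% against 83.9% for KO1 and 80.1% against 64.4% for KO2, with 1 library each and no test.

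**Figure D3:**
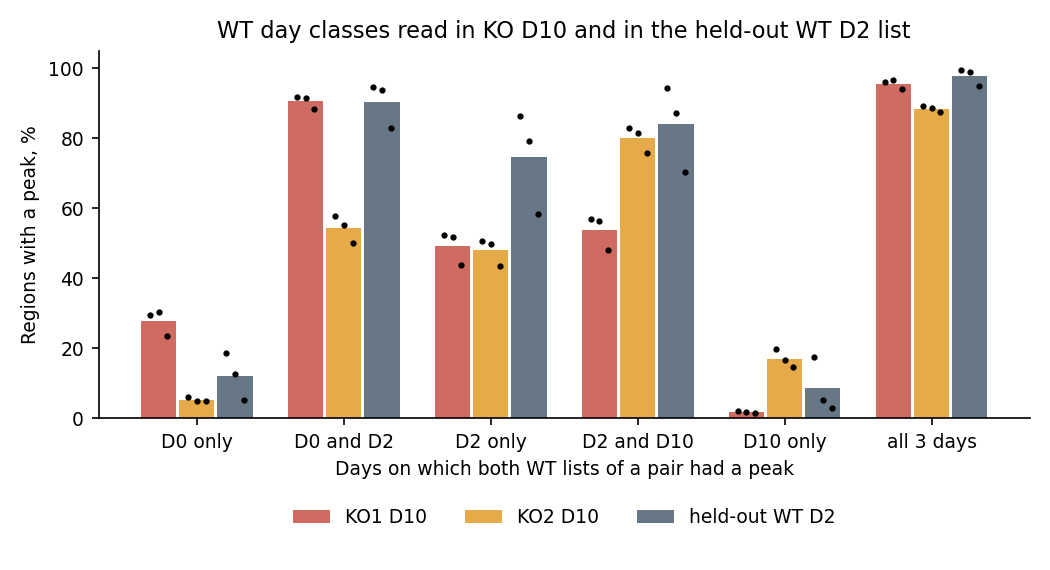
Regions marked on given days in both lists of a pair of WT letters (horizontal axis), and the share of them with a peak (vertical axis, %) in KO1 D10, KO2 D10 and the held-out WT D2 list. Bars are means and points the 3 held-out letters; KO1 D10 matches WT D2 for D0 and D2 (90.6 and 90.4%) and KO2 D10 comes near it for D2 and D10 (80.1 and 84.0%).

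Over all windows, both knockouts stood nearer to WT D2 than to WT D10. Covered bp in 25846 windows of 10 kb were projected on the line from the WT D2 mean, at 0, to the WT D10 mean, at 1, with the axis made from 2 WT letters and read in the third. KO1 D10 stood at -0.0071 and KO2 D10 at 0.250, against 0.0800, 0.0041 and -0.020 in the held-out WT D2 A, B and C and 0.770, 0.881 and 1.02 in WT D10. KO1 D10 lay within the WT D2 values and KO2 D10 above them all, well under the lowest WT D10 value. A value above 0 is not by itself a move towards D10, since KO2 stood at 0.228 at D0 and 0.154 at D2, and the WT D0 libraries at 0.148 to 0.172. In windows kept on the mean of the 6 groups, KO1 D10 was at -0.046 and KO2 D10 at 0.247. The held-out WT D2 A, B and C were then at 0.093, 0.0056 and -0.027, so KO1 D10 lay below them all with that filter. KO2 D0 stood at 0.103, KO2 D2 at 0.109 and WT D0 at 0.052 to 0.079. On the axis from WT D0 (0) to WT D2 (1), KO1 D10 stood at 0.742 and KO2 D10 at 0.874, against 0.939, 0.951 and 0.947 in the held-out WT D2 libraries and 0.116 to 0.339 in WT D0. Both lines were below WT D2 on that axis. So were the WT D10 libraries, at 0.627 to 0.673, so a value under 1 there is not by itself a position nearer to D0. In windows kept on the mean of the 6 groups, KO1 D10 was at 0.723 and KO2 D10 at 0.910, against 0.917 to 0.952 in WT D2, while WT D10 lay at 0.779 to 0.913. Between its D2 and D10 libraries KO1 stood at 0.920 and 0.742 on the D0 to D2 axis, and KO2 at 0.733 and 0.874.

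Distance shows what the axes leave out. The root mean square log2 difference over the windows from the WT D2 libraries was 0.728 for KO1 D10 (0.698 to 0.754 over the 3 libraries) and 0.930 for KO2 D10 (0.881 to 0.976), against 0.481 among the WT D2 libraries (0.434 to 0.518). KO1 D10 and KO2 D10 were 1.10 apart, farther than either was from any WT D2 library. From the D2 library of its own line, KO1 D10 was 0.717 away, inside its range for the WT D2 libraries. KO2 D10 was 0.828 from KO2 D2, nearer than to any WT D2 library. In these windows the nearest of the other WT days was D0 for both, at 1.12 for KO1 D10 and 1.38 for KO2 D10. The WT D10 libraries were at 1.76 and 1.499. The windows were kept for coverage in KO D10 and WT D2, which can lengthen the distances to the other days. Distances were not read in windows kept on the mean of the 6 groups. By overlap of lists, WT D10 came before WT D0 for KO2 D10 (means of 15.9 and 12.2%), so which day is next for KO2 D10 depends on the measure.

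**Figure D4:**
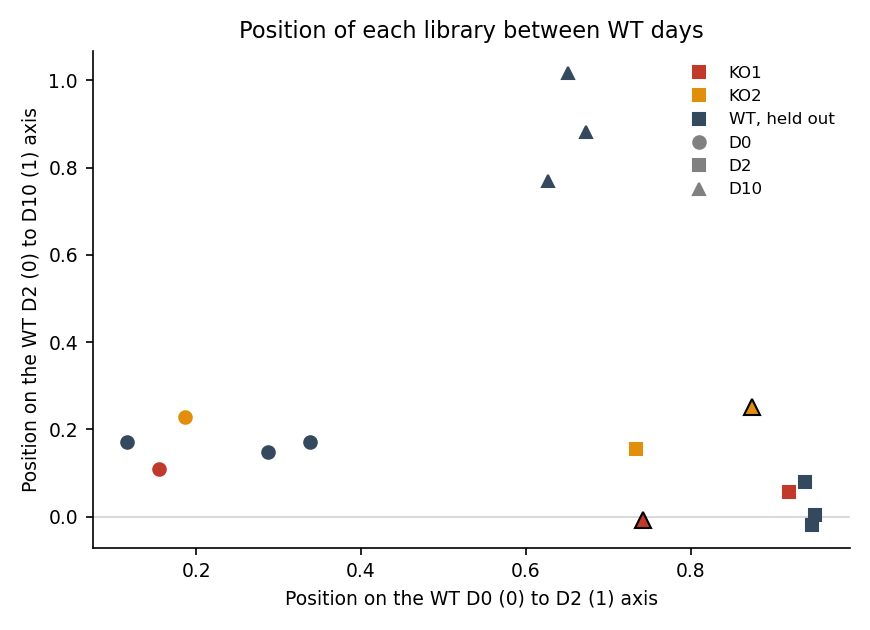
Position of the 15 pre-iPSC libraries on the axis from WT D0 (0) to WT D2 (1) (horizontal) and from WT D2 (0) to WT D10 (1) (vertical), with WT libraries read on axes made from the other 2 letters. The outlined triangles are KO1 D10 (0.742 and -0.0071) and KO2 D10 (0.874 and 0.250), both far below the WT D10 triangles (0.770 to 1.02).

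Tested window by window, no difference between KO D10 as a group and WT D2 passed the threshold. Covered bp per 10 kb window, scaled to the same total in each library, were compared on log2(covered bp + 200) with limma and Benjamini-Hochberg adjustment at 0.05, in a fit of all 15 pre-iPSC libraries. No window was called higher (0%) or lower (0%) in KO D10, the smallest adjusted p by limma was 0.311, and 877 windows (3.39%) had an unadjusted p under 0.05. WT D10 contrasts were added for scale after the data were seen, and they share libraries with the first. The windows had been kept for coverage in KO D10 and WT D2, which favours lower values in WT D10. In them WT D10 was higher than WT D2 in 1061 windows (4.11%) and lower in 9642 (37.3%), and KO D10 was higher than WT D10 in 6881 (26.6%) and lower in 852 (3.3%). With windows kept on the mean of all 6 groups of day and genotype, which weighs WT D10 alike, 25576 windows were tested. WT D10 was then higher than WT D2 in 2004 (7.84%) and lower in 8206 (32.1%). KO D10 was higher than WT D10 in 6201 (24.2%) and lower in 1612 (6.3%). KO D10 against WT D2 again had 0 windows (0%) in either direction, with 861 at an unadjusted limma p under 0.05. The median size of the log2 difference in those windows was 0.32 for KO D10 against WT D2 and 1.06 for WT D10 against WT D2. The first value is for the mean of the KO lines, where departures in opposite directions cancel. It can therefore understate how far each line lay from WT D2. The KO lines also counted as replicates in this fit, so differences between them entered the spread used for the test. Without KO1, so with KO2 D10 as the only KO D10 library, 2 windows were called higher and 27 lower. In 2401 windows (9.29%) both KO D10 libraries lay above all 3 WT D2 libraries, and in 3933 (15.2%) below them; these counts have no test, and nothing is read from them.

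By line, in a fit where each KO library stood alone and was assumed to vary like the WT libraries, the counts differed. KO1 D10 had no window called higher (0%) or lower (0%) than WT D2 by limma, with 1415 windows at an unadjusted p under 0.05 and a smallest adjusted p of 0.187. KO2 D10 had 20 windows called higher (0.0774%) and 192 called lower (0.743%), with 3078 windows at an unadjusted p under 0.05. Both contrasts use the same WT D2 libraries. The KO2 calls rest on each of these: with WT D2 A, B or C left out 0 windows were called in either direction, and with the run name style as a block 0 as well. The balance of the calls depends on the settings, with 77 higher and 75 lower when 1000 bp were added and 4813 higher and 2397 lower over every window with a covered bp. The values of KO1 D10 lay above the WT D2 range in 31.6% of windows, inside it in 35.2% and below it in 33.2%. Those of KO2 D10 lay above it in 28.9%, inside in 27.2% and below in 43.8%.

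The named windows of KO2 D10 were picked with KO2 D10 outside the WT D2 range and KO1 D10 inside it, so that split is not a result. They held 5hmC peaks in KO2 D10 and none in WT D2, or the reverse. Values are scaled covered bp, and since 1 side is listed at 0 no fold is given. Of the 20 windows called higher, 16 averaged under 500 bp in the other 4 libraries and so were kept for testing only through KO2 D10; the 3 named below are of this kind and are given as values, without a p. At chr12:109150001-109160000, KO2 D10 had 4133 bp, against 0 bp in WT D2 A, B and C, and KO1 D10 had 0 bp. KO1 D2 and KO2 D2 had 408 and 903 bp there, and WT D10 A 471 bp. At chr2:172070001-172080000, KO2 D10 had 3348 bp, against 0 bp in all 3 WT D2 libraries. That window was already marked in the earlier libraries of the line, with 557 bp in KO2 D0 and 2369 bp in KO2 D2, and held 0 bp in every KO1 library. At chr15:27880001-27890000, KO2 D10 had 2757 bp, against 0 bp in WT D2, and KO1 D10 had 0 bp. KO2 had 1213 bp there at D0 and 1811 bp at D2, and 4 of the 6 WT libraries of D0 and D10 had between 189 and 502 bp.

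The named windows that were lower in KO2 D10 held 5hmC in WT cells at D0 and D2 and little or none at D10. At chr11:6660001-6670000, KO2 D10 had 0 bp and KO1 D10 2785 bp, against 2815, 3125 and 2572 bp in WT D2 A, B and C (limma adjusted p = 0.0409). KO2 had 2551 bp there at D0 and 1872 bp at D2, and WT D10 A, B and C had 0, 366 and 0 bp. At chr18:75980001-75990000, KO2 D10 had 0 bp and KO1 D10 2290 bp, against 2247, 2452 and 2317 bp in WT D2 A, B and C (limma adjusted p = 0.0236). WT D10 libraries had 0 bp there, and WT D0 between 1941 and 3498 bp. At chr3:96190001-96200000, KO2 D10 had 0 bp and KO1 D10 1957 bp, against 1921, 1770 and 2025 bp in WT D2 A, B and C (limma adjusted p = 0.0273). WT D10 libraries again had 0 bp.

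The lines themselves were compared at D10 in the same fit, 1 library against 1, with the spread taken from the WT libraries. KO1 D10 was higher than KO2 D10 in 66 windows (0.255%) and lower in 29 (0.112%). These calls went to 0 in both directions when any 1 WT D2 library was left out, with the run name style as a block, without scaling and at a -log10 q of at least 5. They were 45 higher and 55 lower with 1000 bp added, and 3282 higher and 5017 lower over every window with a covered bp. Of the 66 windows 6, and of the 29 windows 13, were kept for testing only through the library that was high. The WT D0 and D10 libraries were then read in them. Their means were not part of the contrast, but the spread behind the calls came partly from them. This reading is therefore not independent of the calls. WT D10 was above WT D0 in 2 of the 66 windows where KO1 D10 was higher (3.03%) and in 20 of the 29 where it was lower (69.0%), against 38.6% of all windows. In the 66 windows the median was 1948 bp in KO1 D10 and 0 bp in KO2 D10, beside 1542 bp in WT D0, 1354 bp in WT D2 and 0 bp in WT D10. In the 29 windows the median was 0 bp in KO1 D10 and 2132 bp in KO2 D10, beside 0 bp in WT D0, 703 bp in WT D2 and 1399 bp in WT D10. The run name styles pair KO1 with WT B and KO2 with WT C. Over windows, KO1 minus KO2 at D10 correlated with WT B minus WT C at D2 by r = -0.023 (25846 windows of 4 libraries, which are not independent replicates), and a batch effect was not tested further.

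The regions of KO2 D10 alone were dense in some parts of the genome. Bins of 100 kb were counted after the data were seen, and have no test. Of 8047 bins with a KO1 D10 alone region, 4 held 10 or more and 0 held 20 or more. Of 9672 bins with a KO2 D10 alone region, 261 held 10 or more and 15 held 20 or more. KO2 D10 alone regions were more numerous from the start (25855 against 13766), and the bin counts were not adjusted for that. The densest, chr11:112900001-113000000, had 36 KO2 D10 alone regions of 62, with 14 peaks in KO1 D10 and 56 in KO2 D10, against 19, 18 and 13 in WT D2 A, B and C. At chr15:27800001-27900000 the number was 32 of 45, with 11 peaks in KO1 D10 and 41 in KO2 D10, against 11, 11 and 9 in WT D2. At chr3:148500001-148600000 it was 31 of 60, with 13 and 47 peaks, against 22, 20 and 10 in WT D2. In these 3 bins the day 2 knockout libraries held 32, 25 and 28 peaks (KO1) and 35, 29 and 30 (KO2), above every WT D2 library. A bin at chr4:152900001-153000000, which also holds the longest KO only region, had 13 peaks in KO1 D10 and 3 in KO2 D10, against 0 in all 3 WT D2 libraries. Both lines had 7 to 13 peaks there at D0 and D2, and the 6 WT libraries of D0 and D10 had 0 to 3. The densest bin of WT only regions, chr13:94800001-94900000, held 15 of 41 and had 17 peaks in KO1 D10 and 10 in KO2 D10, against 45, 39 and 35 in WT D2 A, B and C.

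Chromosome 5 set the lines apart in opposite directions. It held 10.5% of KO1 D10 peaks and 4.29% of KO2 D10 peaks, against 6.27, 6.34 and 5.69% in WT D2 A, B and C. The share was 10.3% in KO1 at both D0 and D2, and 5.56 and 4.76% in KO2 at D0 and D2. WT D0 libraries held 5.41 to 6.81%, so KO2 at D0 lay inside the WT range of that day. Relative to the peaks on the other autosomes, chromosome 5 differed from the WT D2 mean by log2 0.85 in KO1 D10 and -0.54 in KO2 D10. The other 18 autosomes lay between -0.08 and 0.10 in KO1 D10 and between -0.17 and 0.12 in KO2 D10. In bins of 10 Mb, KO1 D10 was above all 3 WT D2 libraries in 16 of 16 bins (log2 0.61 to 1.87). KO2 D10 was below all 3 in 13 of 16 and above in 1. A change in the number of copies of the chromosome and a change in its 5hmC cannot be told apart from these lists.

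**Figure D5:**
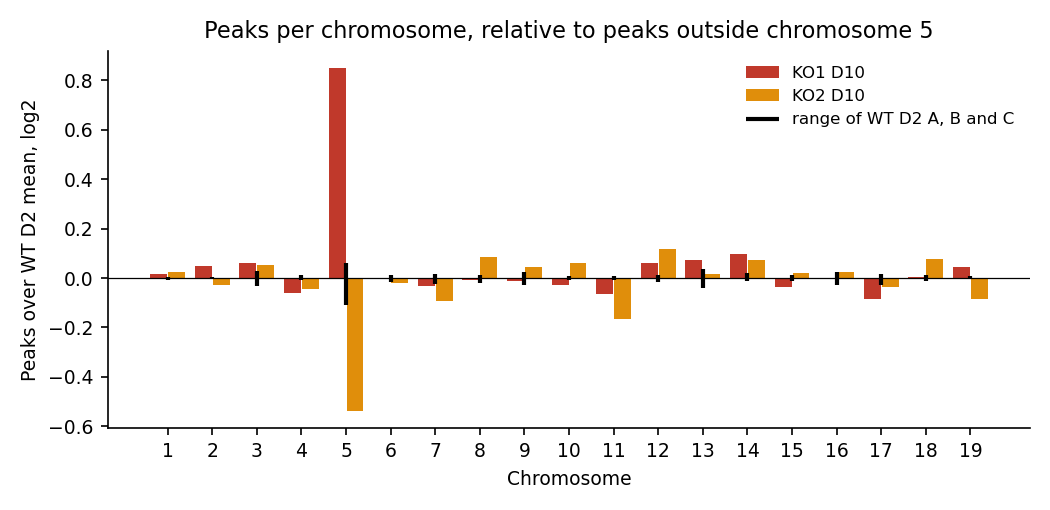
Peaks per autosome in KO1 D10 and KO2 D10 over the WT D2 mean (vertical axis, log2), each relative to the library's peaks outside chromosome 5; black lines give the range of WT D2 A, B and C. Chromosome 5 stands apart at 0.85 in KO1 D10 and -0.54 in KO2 D10, while all others lie between -0.17 and 0.12.

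The group comparison hid this on chromosome 5, since the lines lay on opposite sides of WT D2. The calls on chromosome 5 apart were not recomputed under other settings or with a library left out. Of 1904 windows there, KO D10 as a group was higher in 0 (0%) and lower in 0 (0%) by limma, with 11 at an unadjusted p under 0.05. KO1 D10 was higher in 1 (0.0525%) and lower in 0 (0%), and KO2 D10 was higher in 1 (0.0525%) and lower in 129 (6.78%). KO1 D10 was higher than KO2 D10 in 306 windows (16.1%) and lower in 0 (0%). The window with the largest rise in KO1 D10, chr5:128930001-128940000, had 2521 bp in KO1 D10 and 0 bp in KO2 D10, against 0 bp in WT D2 A, B and C, and 5121 bp in KO1 D0. It was kept for testing only through KO1 D10, so no p is given. The largest rise in KO2 D10 was at chr5:117580001-117590000, with 934 bp in KO1 D10 and 3420 bp in KO2 D10, against 887, 178 and 228 bp in WT D2 (limma adjusted p = 0.0376). WT D10 libraries had 1422 to 2407 bp there. The largest fall in KO2 D10 was at chr5:67620001-67630000, with 2499 bp in KO1 D10 and 0 bp in KO2 D10, against 2949, 3228 and 2553 bp in WT D2 (limma adjusted p = 0.0253). The lowest window of KO1 D10, chr5:147220001-147230000, had 0 bp in KO1 D10 and 1062 bp in KO2 D10, against 736, 959 and 726 bp in WT D2, and did not pass (limma adjusted p = 0.353). KO1 D10 alone regions made up 21.5% of the 15165 merged regions of chromosome 5 and KO2 D10 alone regions 4.45%.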

How the data were processed

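5hmC was measured in genomic DNA that was sonicated, labelled on 5hmC with a biotin-bearing glucose, captured on streptavidin and sequenced, per the labels' protocols. Bowtie, SAMtools, MACS2 and the mm9 build are named, without versions, per the submitters' processing notes. Each library has its own deposited peak list, with the authors' score, fold enrichment (a linear ratio), -log10 p, -log10 q and a summit offset, which was not used, per the MACS2 column layout. Run names carry a p threshold of 0.0001. Each was used within its own list only, for ranking or filtering. Absolute depth is unknown; relative depth came from the step size of the deposited fold values.

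All deposited peaks on chromosomes 1 to 19 were used, with chromosome 5 apart. Lists were compared at 1 bp of overlap, in Python 3.11.15 with numpy 2.4.6 and scipy 1.17.1. Covered bp in 10 kb windows, scaled to the mean total, entered limma 3.58.1 (R 4.3.3; lmFit, eBayes with trend and robust) as log2(covered bp + 200), for windows with a mean of at least 500 bp over the 5 libraries, so windows kept through 1 high library had to differ. The fit of 6 groups left 9 residual degrees of freedom and the fit with each KO library alone 6. Log2 changes on this scale understate those of sparsely covered windows. Scripts were tested on simulated data. Windows named were the 5 largest rises and falls of KO D10 past the threshold with groups apart, per line the 3 largest with the other line inside the WT D2 range, and on chromosome 5 the largest of each line; for the group and for KO1 D10 outside chromosome 5 none passed. Regions named were the 5 longest KO only and WT only. Reading gene loci and sequence needed mm9 and was not run. The comparison, its regions and its lists were chosen with earlier results of these data known.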

Additional observations from a re-analysis of the deposited data

Results flagged for a closer look

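KO1 and KO2 were set against each other at D10, 1 library against 1. The windows tested were 25846 outside chromosome 5 and 1904 on it. The calls outside chromosome 5 were recomputed under other settings, and those on chromosome 5 apart were not. KO1 D10 was higher than KO2 D10 in 66 windows and lower in 29 outside chromosome 5 (limma, Benjamini-Hochberg adjusted p under 0.05). These calls were 0 and 0 without any 1 WT D2 library, at a -log10 q of at least 5, unscaled and with the run name style as a block. On chromosome 5 it was higher in 306 windows.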

How the results depend on the processing

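Of 205 recomputed values of the comparisons 134 kept their side or size and 71 moved, and of 83 for the named windows 56 held and 27 no longer passed. No log2 change of a named window changed sign. The position of KO1 D10 on the D2 to D10 axis, near the WT D2 mean at -0.0071, did change sign under several settings. It was 0.0174 with the strongest peaks and 0.0880 unscaled. The balance of higher and lower calls turned for KO2 D10 and for KO1 against KO2. The overlap difference of KO D10 from WT D2 ran from -18.1 to -7.85 points over the libraries left out, and that of log2 peak number from -0.40 to -0.11. Leaving out a library gave 1957 to 27613 KO only and 9392 to 24907 WT only regions, and the strongest 105785 peaks of each library gave 4784 WT only regions. At least 50% overlap of both peaks gave 64.6% for KO2 D10. KO1 D10 and WT D2 differed in 88 lower windows with 50 bp added, 1 higher with 1000 bp added, and 1934 higher and 1144 lower with every covered window. KO2 D10 calls (20 higher, 192 lower) were 631 lower unscaled, 13 and 87 centred on the median window, 586 lower with 50 bp added, 77 and 75 with 1000 bp added, 4813 and 2397 with every covered window, 524 lower in 5 kb windows and 38 higher with windows kept on the mean of the 6 groups. They ranged from 0 to 25 higher and from 0 to 178 lower with a library left out. KO1 against KO2 (66 higher, 29 lower) gave 38 and 12 with the strongest peaks, 0 and 0 at -log10 q of at least 5 and unscaled, 127 and 50 with chromosome 5, 452 and 186 with 50 bp added, 45 and 55 with 1000 bp added, 3282 and 5017 with every covered window and 288 and 71 in 5 kb windows, and 0 and 0 without any 1 WT D2 library. The group contrast had 0 to 2 higher and 0 to 27 lower windows with a library left out. Causes were not tested.

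KO D10 and WT D2 share no replicate numbers in the labels, so the replicate block used the style of the run names, which does not show pairing; with it 0 higher and 0 lower windows were called for KO2 D10 and for KO1 against KO2. Unscaled, the median window moved to log2 -0.30 for KO D10 and -0.38 for KO2 D10, against -0.10 and -0.13 scaled. Positions on the D2 to D10 axis were 0.0880 (KO1 D10) and 0.325 (KO2 D10) unscaled. On the D0 to D2 axis KO1 D10 was at 0.728 (strongest peaks), 0.753 (-log10 q of at least 5), 0.701 (unscaled) and 0.723 (windows kept on the 6 groups), and KO2 D10 at 0.831 (strongest peaks), 0.703 (unscaled) and 0.910 (6 groups). With a WT D2 library left out they ran from 0.710 to 0.763 (KO1 D10) and from 0.843 to 0.899 (KO2 D10). How far depth limits the weaker peaks was not tested. The 6-group filter was added after the data were seen.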

Other observations

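The longest regions of a single line were read after the data were seen. For KO1 D10 alone the longest, chr4:152937611-152939623, was covered over 2013 bp in KO1 D10, against 0 bp in WT D2 A, B and C, and lies near the longest KO only region. Both lines had a peak in it at D0 and D2, and no WT list did. The next, chr4:32261805-32263223, chr12:119768586-119769860, chr3:143861089-143862234 and chr12:5077193-5078338, had a peak in 2 or 3 WT D0 lists and in 0 WT D10 lists. For KO2 D10 alone the longest, chr2:172074333-172076267, was covered over 1935 bp in KO2 D10, against 0 bp in WT D2, with a peak in KO2 at D0 and D2. The next, chr9:70155110-70156843, had a peak in 0 WT D0 and 2 WT D10 lists. The 2 regions after chr15:27870718-27872258, chr4:83446643-83448024 and chr6:95564365-95565690, had a peak in KO2 D2 and in no WT list.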
